A study of Mus musculus with 14 samples.

Results

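Reduced glutathione and thioredoxin are the thiol systems with which a cell removes peroxides and electrophiles. The genes described here encode enzymes and partner proteins of both systems, thioredoxin-like proteins, some other antioxidant enzymes and the regulator Nfe2l2. They are the protein-coding genes of the deposited count table whose mouse symbol starts with Gsta, Gstm, Gstp, Gstt, Gsto, Gstk, Gstz, Mgst, Gpx, Prdx, Txn or Glrx, joined by Gclc, Gclm, Gss, Gsr, Nqo1, Hmox1, Sod1, Sod2, Cat and Nfe2l2. The rule found 69 genes among the 17038 protein-coding genes of the table, which lists 26252 genes in all. The symbols of 4 further listed genes fit the prefixes, but they are processed pseudogenes (Gpx2-ps1, Gstp-ps, Prdx6-ps2 and Txn-ps1) and were not counted.

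The libraries come from dorsal skin epithelium of wild-type (WT) C57BL/6JOlaHsd embryos at E14.5, when hair placodes stand out as local thickenings of the epidermis. An antibody to the adhesion molecule MAdCAM-1 sorted live epithelial cells into a positive, placode-enriched fraction and a negative fraction, labelled IFE for interfollicular epithelium. Each of 7 pooled cell suspensions, made from 3 to 4 embryos of 1 litter by Dispase II and TrypLE digestion, has the same title code on a library of each fraction, which gives 7 pairs and 14 libraries. All groups share the genotype, the strain, the stage and the digestion, and a pool of a litter stands for no single embryo.

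Glutathione is made from glutamate, cysteine and glycine in successive ligation steps, is used by transferases, peroxidases and glutaredoxins, and is returned to its reduced form by glutathione reductase at the expense of NADPH. Peroxiredoxins reduce peroxides with a reactive cysteine that thioredoxin resets, and thioredoxin is recharged by thioredoxin reductase, a selenoprotein. Many of these genes are known targets of NRF2, the transcription factor encoded by Nfe2l2, which binds antioxidant response elements and is known in the epidermis for the defence of keratinocytes against oxidants and electrophiles.

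Library totals ran from 23.8 to 49.5 mega counts. The summed level of 6 epithelial markers (Krt5, Krt14, Cdh1, Epcam, Trp63 and Perp) was 5085 to 6224 CPM (counts scaled to a library of 1 mega count) in placode-enriched and 5998 to 7403 CPM in IFE libraries, so the label of epithelial cells was met in each library. The 8 placode markers (Shh, Edar, Lhx2, Madcam1, Foxi3, Dkk4, Fgf20 and Trps1) summed to 1059.5 to 1559 CPM and to 97.6 to 144 CPM, in the same order. Madcam1 encodes the molecule used for sorting, so its difference (mean 47.9 against 0.561 CPM) is no independent check of the labels. Placode-enriched replicate 5 and IFE replicate 3 stood apart, with the highest share of structural noncoding RNA of their fraction (1.29% and 1.30%) and the lowest scaling factor (0.940 and 0.939). Prdx1, Prdx4, Gpx4 and Sod1 are given with and without these pairs.

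Of the 69 members, 61 passed the filter on low counts and were tested between the fractions, with a block for each pair (edgeR quasi-likelihood test, p-values adjusted by the Benjamini-Hochberg method over 15382 genes, threshold 0.05). In the placode-enriched fraction 19 members were lower, 6 were higher and 36 did not pass. Of all genes tested, 15.6% were lower and 15.5% higher, against 31.1% and 9.84% of the tested members. The median log2 fold change of placode-enriched over IFE was -0.17 over the tested members and -0.02 over all genes. CPM ranges did not overlap between the fractions for 13 members that were lower and 3 that were higher. That is 21.3% and 4.92% of the tested members, where all genes gave 7.29% and 7.46%. Among the members past the threshold, 16 of the 19 lower ones differed in 1 direction in 7 of 7 pairs, as did 5 of the 6 higher ones. The 19 include Gsta1 and Gsta2, which passed the filter on low counts through their IFE libraries. In bulk libraries fewer cells that express a gene and less RNA of it per cell cannot be told apart.

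**Figure D1:**
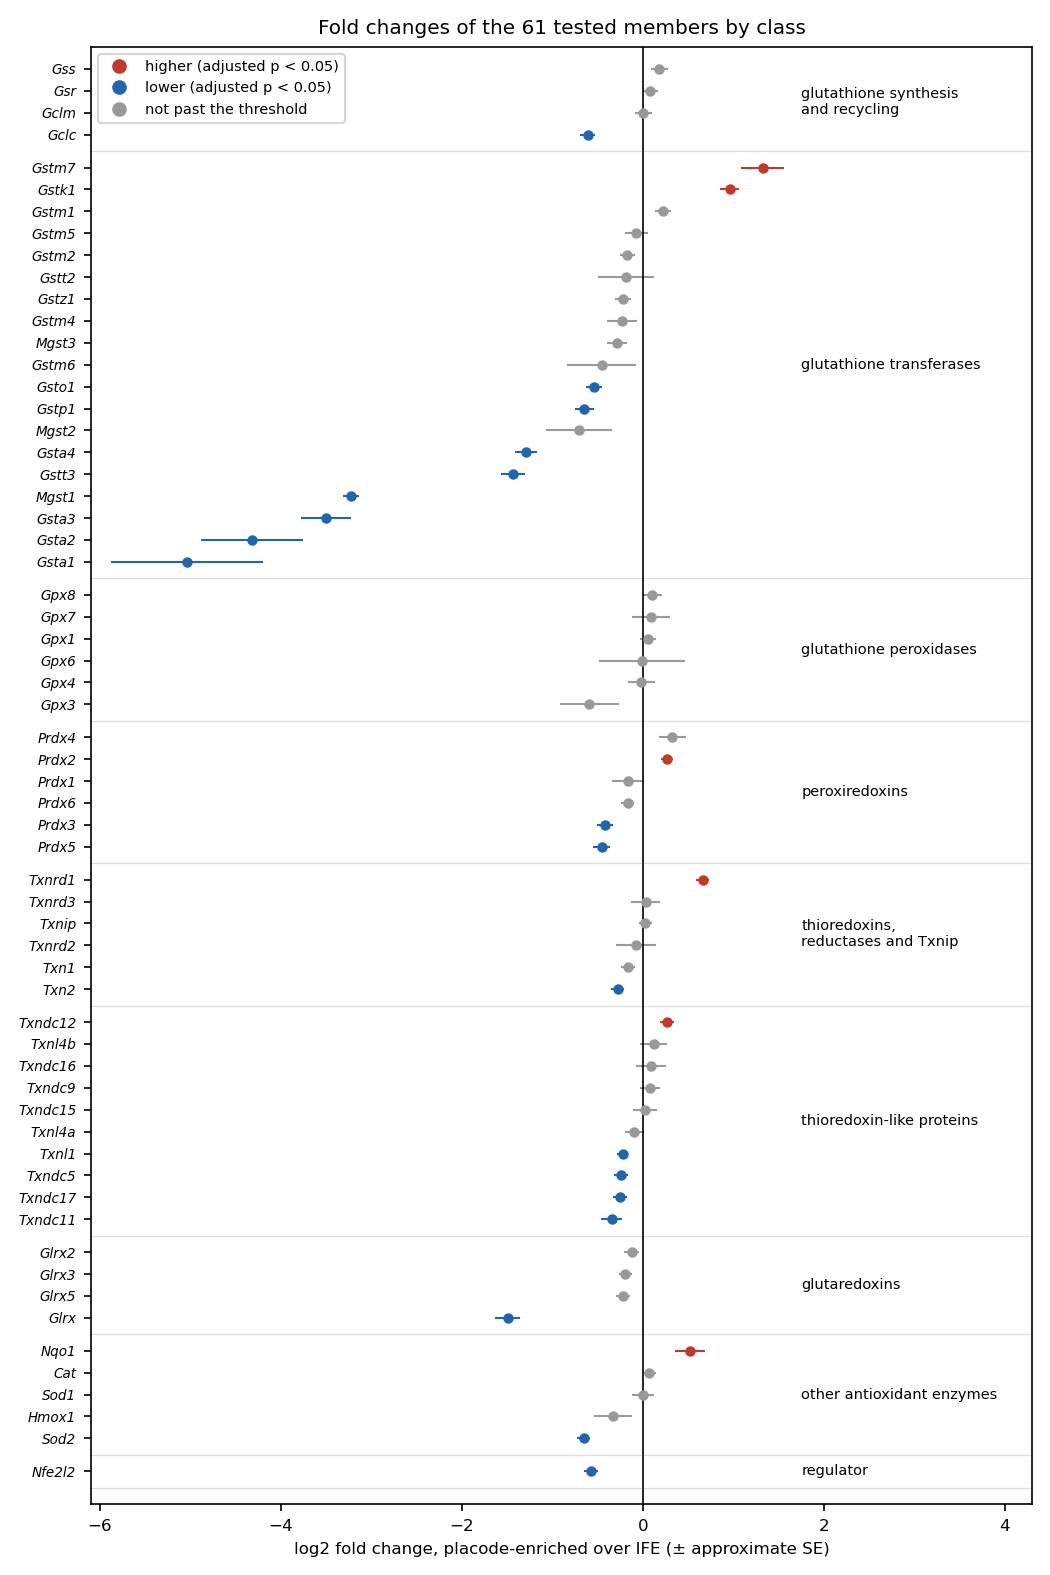
Log2 fold changes of the 61 tested members (x axis, placode-enriched over IFE), grouped by class, with bars of approximate SE and colour for the edgeR call. The lower members reach far to the left among the glutathione transferases, while the 6 higher members lie between 0.27 and 1.33.

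The plot of fold changes by class is to be read beside all genes tested, of which 15.6% were lower and 15.5% higher. No class was tested as a set, and in small classes a single gene moves the share. Among the tested glutathione transferases 8 of 19 were lower and 2 higher, and among thioredoxin-like proteins 4 of 10 were lower and 1 higher. No glutathione peroxidase of 6 passed. Peroxiredoxins gave 2 lower and 1 higher of 6, the thioredoxins with their reductases and Txnip 1 lower and 1 higher of 6, and the genes of glutathione synthesis and recycling 1 lower of 4. Sizes were mostly small: 8 members past the threshold differed by at least 1 on the log2 scale, 7 of them lower, and 9 differed by less than 0.5. Gsta1 and Gsta2, which passed the filter through their IFE libraries, are among the 8 lower transferases and these 7.

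Nfe2l2 itself was lower in the placode-enriched cells. Nfe2l2 (ENSMUSG00000015839; GRCm38 chromosome 2, 75675513 to 75704641, minus strand) stood at a lowest, median and highest 52.5, 59.7 and 77.5 CPM in placode-enriched libraries and at 82.8, 92.4 and 98.8 CPM in IFE libraries. The ranges did not overlap, and each pair showed the lower level in its placode-enriched library. The log2 fold change was -0.58 ± 0.07 (± gives the approximate SE; adjusted p = 5.08e-05, edgeR).

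To see which members carry the letters of the antioxidant response element core, TGACNNNGC on either strand, RefSeq promoter windows (GRCm38.p6, 250 bases before to 50 after each start) were searched. A window was given for 60 members, and 11 of them (18.3%) held the core, against 14% of 27025 genes with a window. A gene counted if any of its windows held the core. The 60 members had 81 windows and the 27025 genes had 32851, so the shares are not matched for windows per gene. Elements outside the windows were not searched. It was found in 2 of the 6 higher members (Gstm7 and Txnrd1), in 5 of the 16 lower members with a window (Gsta3, Nfe2l2, Mgst1, Txndc5 and Txndc11) and in 4 of 31 that did not pass (Gstm5, Gclm, Prdx1 and Sod1). The core was thus present in promoters of members that were lower, that were higher and that did not pass. The stretches around it are shown on the strand of the gene where they lie outside annotated exons, 5′ to 3′, with the core or its reverse complement in capitals.
Gsta3 (lower; chr1:21240438-21240498, plus strand): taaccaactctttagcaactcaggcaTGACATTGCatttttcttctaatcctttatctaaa
Txndc11 (lower; chr16:11134739-11134782, minus strand): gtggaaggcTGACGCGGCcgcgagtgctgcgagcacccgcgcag
Txnrd1 (higher; chr10:82859088-82859148, plus strand): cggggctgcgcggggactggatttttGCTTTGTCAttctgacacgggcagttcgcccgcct
Gclm (not past the threshold; chr3:122245397-122245457, plus strand): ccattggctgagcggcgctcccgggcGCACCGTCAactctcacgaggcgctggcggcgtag
Prdx1 (not past the threshold; chr4:116685440-116685500, plus strand): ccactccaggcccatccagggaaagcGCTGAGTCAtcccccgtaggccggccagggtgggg
Sod1 (not past the threshold; chr16:90220680-90220740, plus strand): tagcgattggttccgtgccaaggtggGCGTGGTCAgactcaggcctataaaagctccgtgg
The core ends 113 bases or fewer before the start in Gsta3, Txnrd1 and Sod1 (from position -121 to -113, -92 to -84 and -56 to -48) and lies farther upstream in Gclm, Prdx1 and Txndc11 (-134 to -126, -133 to -125 and -241 to -233). Mgst1, the member with the smallest adjusted p, held TGACCGTGC on the opposite strand from -56 to -48. Some of these starts lie inside the gene as annotated. The Txnrd1 stretch begins at 82859088, while the gene runs from 82833951 to 82897712 on the plus strand. The core of Mgst1, Gstm7 and Txndc5 also lies within the annotated gene. Binding of NRF2 to these windows was not measured here.

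Glutathione synthesis differed in 1 of its steps. Gclc, the catalytic subunit of glutamate-cysteine ligase (ENSMUSG00000032350; chromosome 9, 77754535 to 77794485, plus strand), stood at 27.05, 29.8 and 34.7 CPM (lowest, median, highest) in placode-enriched and at 36.6, 47.1 and 51.5 CPM in IFE libraries. No placode-enriched library reached the lowest IFE library, and the log2 fold change was -0.61 ± 0.08 (adjusted p = 8.09e-05, edgeR). Its partner Gclm, the modifier subunit, ran from 35.2 over 44.8 to 56.2 CPM and from 37.1 over 45.3 to 53.4 CPM. The Gclm ranges lay over each other and the log2 fold change was 0.00 ± 0.09 (adjusted p = 0.985, edgeR). Gss, which joins glycine in the last step, had an estimate of 0.18 ± 0.10 (adjusted p = 0.189, edgeR). Gsr, glutathione reductase, stood at 28.0, 35.8 and 41.7 CPM against 26.4, 34.3 and 35.1 CPM, with an estimate of 0.08 ± 0.09 (adjusted p = 0.535, edgeR). Exons of Gclm and Gss overlap those of genes on the opposite strand, and whether the counting used strand is not given in the sources used here.

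The transferases, which join glutathione to electrophiles, held the largest differences of all members. Mgst1, a microsomal glutathione transferase that also reduces lipid peroxides (ENSMUSG00000008540; chromosome 6, 138140316 to 138156755, plus strand), stood at 15.7, 22.8 and 25.7 CPM in placode-enriched and at 180.1, 197 and 255 CPM in IFE libraries. The lowest IFE library thus lay far above the highest placode-enriched one, and the mean was 9.36-fold higher in IFE. Its log2 fold change was -3.23 ± 0.09 (adjusted p = 4.12e-11, edgeR), and differences within the 7 pairs ran only from -3.52 to -2.98. By CPM per kilobase of exon (RPKM), Mgst1 ranked 4 among the 69 members in IFE libraries at 102 ± 13.1 and 32 in placode-enriched libraries at 10.9 ± 1.57 (mean ± SD, n = 7 each).

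The alpha class followed. Gsta4, known for the conjugation of hydroxynonenal from lipid peroxidation (ENSMUSG00000032348; chromosome 9, 78182774 to 78209349, plus strand), stood at 10.6, 16.8 and 19.9 CPM in placode-enriched and at 32.2, 37.7 and 46.3 CPM in IFE libraries. These ranges were apart, with a log2 fold change of -1.29 ± 0.12 (adjusted p = 1.79e-06, edgeR). Gsta3 (chromosome 1, 21240589 to 21265661, plus strand) was near the limit of detection in placode-enriched libraries, at 0.317, 0.384 and 0.650 CPM from 97 counts in all. Its IFE libraries had 2.97, 4.62 and 8.53 CPM, and the log2 fold change was -3.50 ± 0.27 (adjusted p = 4.21e-07, edgeR). Gsta2 had counts in 5 of 7 placode-enriched libraries, at 0, 0.195 and 0.702 CPM, and 3.85, 4.36 and 7.37 CPM in IFE libraries. The Gsta2 estimate was -4.32 ± 0.56 (adjusted p = 5.38e-05, edgeR). Gsta1 had 17 counts over all placode-enriched libraries, 5 of which had none, and 256 over the IFE libraries. Its estimate of -5.04 ± 0.84 (adjusted p = 0.000318, edgeR) depends on the prior count, and without replicate 3, which held the highest placode-enriched value, it was -6.30. Since both passed the filter through their IFE libraries, their differences are descriptions. Both Gsta1 and Gsta2 are also uncertain as single genes, because 100% of their transcript is shared at an identity of 97% or more with other annotated genes, most with Gm3776 and Gm10639.

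Other cytosolic transferases went both ways. Gstt3, of the theta class (ENSMUSG00000001665; chromosome 10, 75774115 to 75781414, minus strand), stood at 7.06, 8.57 and 12.1 CPM in placode-enriched and at 22.7, 24.0 and 29.6 CPM in IFE libraries, without overlap. The Gstt3 log2 fold change was -1.43 ± 0.13 (adjusted p = 2.00e-06, edgeR). Gsto1, of the omega class, and Gstp1, of the pi class, were lower by smaller amounts, at -0.54 ± 0.09 and -0.65 ± 0.10 on the log2 scale. Of the Gstp1 transcript 86.1% is shared with near-identical genes, most with Gstp2, so its counts are uncertain. Gstp2 itself held only 9 and 155 counts in placode-enriched and IFE libraries, against 9073 and 13970 for Gstp1. In the opposite direction, Gstm7 of the mu class (ENSMUSG00000004035; chromosome 3, 107926334 to 107931817, minus strand) had 5.07, 6.48 and 8.74 CPM in placode-enriched against 1.48, 2.47 and 4.19 CPM in IFE libraries. Again the ranges were apart, with a log2 fold change of 1.33 ± 0.24 (adjusted p = 0.000774, edgeR). Gstk1, a transferase of mitochondria and peroxisomes, was higher as well, at 31.0 ± 4.81 against 16.1 ± 3.57 CPM (mean ± SD, n = 7 each) and a log2 fold change of 0.96 ± 0.10 (adjusted p = 1.10e-05, edgeR).

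The other 9 tested transferases did not pass. Their estimates ran from -0.71 ± 0.36 for Mgst2 to 0.22 ± 0.09 for Gstm1. Gstm1, Gstz1 and Mgst3 passed when a pair was left out: Gstm1 at 0.26 without replicate 3 (adjusted p = 0.0335, edgeR), Gstz1 at -0.27 without replicate 1 (adjusted p = 0.0440, edgeR) and Mgst3 at -0.40 without replicate 5 (adjusted p = 0.00345, edgeR). Summed over all 25 transferases, RPKM came to 190.1 ± 11.2 in placode-enriched and 328 ± 28.5 in IFE libraries (mean ± SD, n = 7 each; lowest to highest 172 to 204 and 291 to 365). Without Mgst1 the sums were 179 ± 10.3 and 226 ± 17.96, still without overlap (164 to 193 and 202 to 249.8 RPKM).

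**Figure D2:**
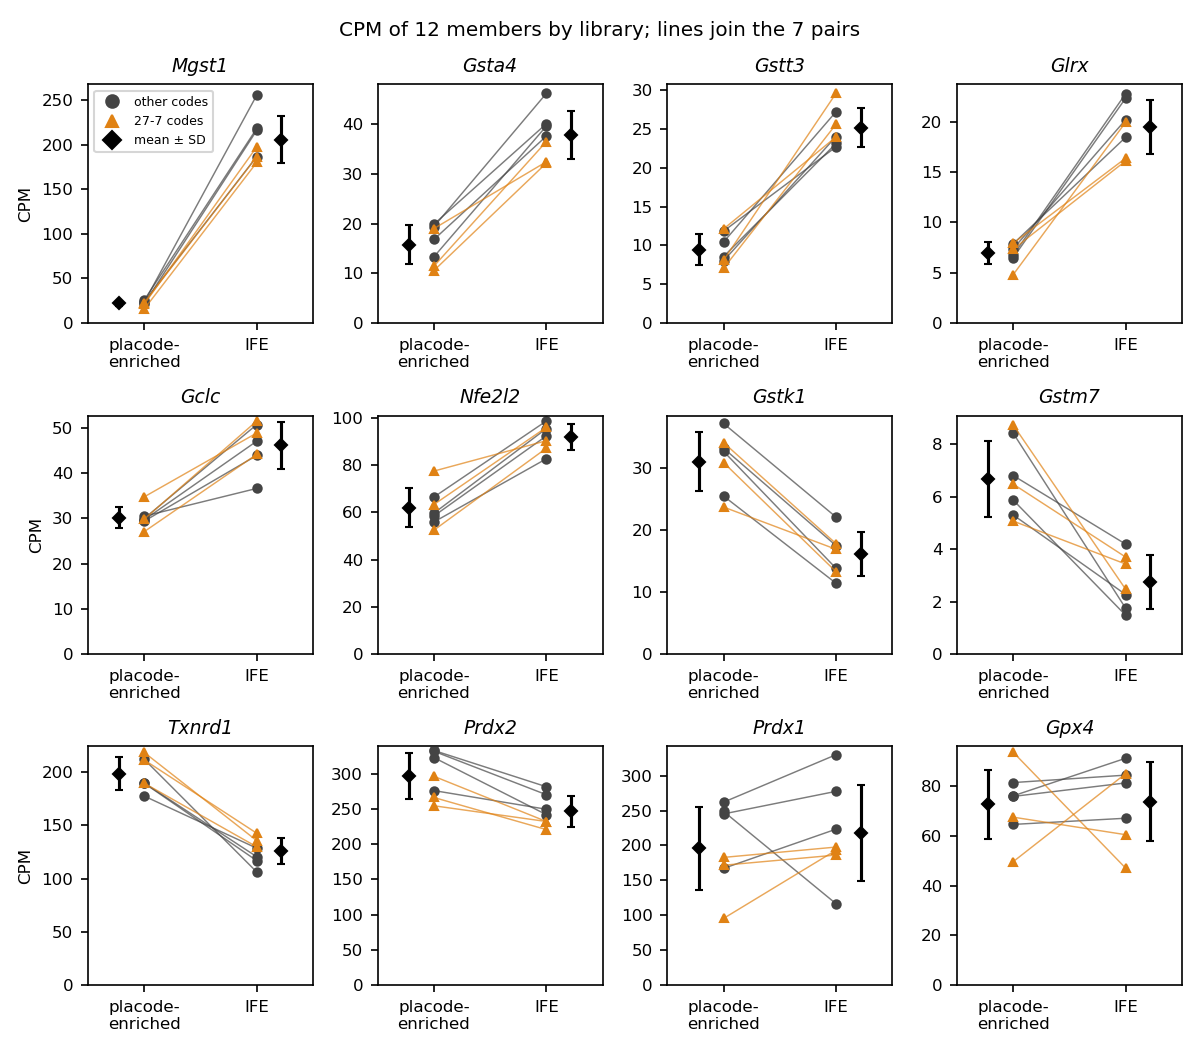
CPM (y axis, from 0) of 12 members in each placode-enriched and IFE library, with lines joining the 7 pairs, diamonds and bars for mean ± SD, and triangles for the 3 pairs whose codes start with 27-7. Mgst1 falls from 180.1 CPM or more in IFE to 25.7 CPM or less in placode-enriched libraries, Txnrd1 and Gstk1 run the other way, and the lines of Prdx1 and Gpx4 cross.

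Markers of differentiating epidermis and of pigment cells moved the same way as the lower transferases. The 10 suprabasal markers summed to 222 to 483 CPM in placode-enriched and 2902 to 4544 CPM in IFE libraries, with 9 of 10 lower (Krt1, Krt10, Krtdap, Sbsn, Ivl, Grhl1, Dsc1, Dsg1a and Lor) and Calml3 not past the threshold. Melanoblast markers summed to 8.31 to 14.6 and 124 to 222 CPM, with 8 of 8 tested lower, among them Dct, Tyr and Pmel, while Tyrp1 stayed at or below 0.215 CPM in each library. Periderm markers summed to 24.4 to 43.7 and 95.1 to 115 CPM, with 5 of 7 tested lower and Krt8 and Krt18 higher. The part of these cell types in the transferase result was not tested. Of 6 tested fibroblast markers, Dcn and Col1a2 were higher, Col1a1 was lower (-2.49 on the log2 scale) and Col3a1, Lum and Pdgfra did not pass. Their sum, mostly Dcn, was 365 to 592 CPM in placode-enriched and 248 to 338 CPM in IFE libraries, and Twist2 and Dpt were at 0 in some libraries and not tested. Neural markers summed to 3.12 to 6.05 and 6.94 to 15.4 CPM, with Fabp7 and Tubb3 lower of 4 tested. Small sums were higher in placode-enriched libraries for Merkel cells (3.497 to 6.76 against 0.0335 to 1.09 CPM, with Sox2 the 1 gene tested), endothelium (1.33 to 3.84 against 0.214 to 1.43 CPM, with Pecam1 the 1 gene tested) and myeloid cells (4.46 to 10.99 against 2.95 to 6.40 CPM, with Aif1 higher of 3 tested). The part of these cells in the members' values was not tested either. Markers near 0 in 1 fraction could pass the filter on low counts through the other fraction. Dct, Tyr, Mlana, Ivl, Fabp7 and Tubb3 passed it through their IFE libraries, and Sox2, Pecam1 and Aif1 through their placode-enriched libraries. Differences of such markers are descriptions. Genes that dissociation can raise, the immediate early genes with the heat-shock genes Hspa1a and Hspa1b, summed to 116 to 186 and 187 to 224 CPM. Of 8 tested, Fos, Hspa1a and Hspa1b were lower and Egr1 and Atf3 higher, and their part was likewise not tested. Erythroid markers stayed at or below 0.879 CPM in sum over the 6 of 9 that were found. Hba-a1, Hbb-bs and Hba-x were not among them, and the part of erythroid cells in the members' values was not tested.

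Glutathione peroxidases, which reduce hydrogen peroxide or lipid peroxides with glutathione, gave no member past the threshold. Of 6 tested, edgeR called 0, DESeq2 0 and limma-voom 0, and 0 had an unadjusted edgeR p under 0.05. Gpx1, the cytosolic peroxidase and the class member with the highest RPKM (chromosome 9, 108338903 to 108340343, plus strand), stood at 144, 165 and 225 CPM in placode-enriched and at 150.3, 178 and 192 CPM in IFE libraries. Gpx1 ranges overlapped almost fully, and the estimate was 0.06 ± 0.09 (adjusted p = 0.689, edgeR). Gpx4, which reduces phospholipid hydroperoxides and protects cells from ferroptosis, had 49.6, 75.9 and 93.6 CPM against 47.0, 81.3 and 91.2 CPM. Its highest values lay in the libraries that stood apart, placode-enriched replicate 5 and IFE replicate 3. The Gpx4 estimate was -0.02 ± 0.15 (adjusted p = 0.953, edgeR). Without replicate 3 it was 0.03 (adjusted p = 0.929, edgeR), without replicate 5 it was -0.18 (adjusted p = 0.223, edgeR), and without both pairs it was -0.16 (adjusted p = 0.306, edgeR). Of the Gpx4 transcript 73.7% is shared with the pseudogene Gpx4-ps2, so reads may be lost to it. The other estimates ran from -0.59 ± 0.32 for the secreted Gpx3, at 1.45 ± 0.818 against 1.99 ± 0.501 CPM (mean ± SD, n = 7 each), to 0.11 ± 0.11 for Gpx8 of the endoplasmic reticulum.

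Peroxiredoxins changed in both directions. Prdx2, the cytosolic form with the highest RPKM of the class (ENSMUSG00000005161; chromosome 8, 84969587 to 84974834, plus strand), was higher: it stood at 255, 296 and 333 CPM in placode-enriched and at 221, 242 and 282 CPM in IFE libraries. Although the ranges overlapped, Prdx2 was higher in 7 of 7 pairs, with a log2 fold change of 0.27 ± 0.06 (adjusted p = 0.00595, edgeR). Prdx3 of mitochondria and Prdx5, which is found in mitochondria and peroxisomes, were lower. Prdx3 stood at 23.8 ± 3.44 against 31.6 ± 3.53 CPM and Prdx5 at 46.2 ± 5.34 against 63.3 ± 6.57 CPM (mean ± SD, n = 7 each). The log2 fold changes were -0.41 ± 0.09 (adjusted p = 0.00281, edgeR) and -0.46 ± 0.10 (adjusted p = 0.00251, edgeR), each in 7 of 7 pairs. Exons of Prdx2 overlap those of Rnaseh2a and Junb, and 19.1% of the Prdx5 exon length overlaps Trmt112, on the opposite strand; none of these partners passed the threshold.

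For Prdx1 and Prdx4 the call rested on single pairs. Prdx1, the other cytosolic form, had 95.4, 183 and 262 CPM in placode-enriched and 116, 198 and 330.0 CPM in IFE libraries, and its lowest values lay in the libraries that stood apart, placode-enriched replicate 5 and IFE replicate 3. Its standard error of 0.18 was the largest among members with a mean above 50 CPM, and the estimate of -0.16 did not pass (adjusted p = 0.551, edgeR). Without replicate 3 it was -0.36 (adjusted p = 0.0177, edgeR), without replicate 5 it was -0.02 (adjusted p = 0.937, edgeR), and with both pairs left out it was -0.23 (adjusted p = 0.0124, edgeR). Prdx4, the form of the secretory pathway, had its lowest value of 17.1 CPM in placode-enriched replicate 5, where the other libraries of the fraction had up to 44.1 CPM. Its estimate of 0.32 ± 0.15 (adjusted p = 0.1249, edgeR) became 0.47 without replicate 5 (adjusted p = 0.00521, edgeR) and 0.52 without replicates 3 and 5 (adjusted p = 0.00253, edgeR). Prdx6, which uses glutathione rather than thioredoxin, had -0.17 ± 0.07 (adjusted p = 0.0901, edgeR) and passed at -0.20 without replicate 3 (adjusted p = 0.0345, edgeR). With structural noncoding RNA genes left out, the estimates of Prdx1, Prdx4 and Prdx6 were -0.15, 0.33 and -0.16 (adjusted p = 0.565, 0.116 and 0.104, edgeR).

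In the thioredoxin system the cytosolic reductase was higher and the mitochondrial thioredoxin lower. Txnrd1 (ENSMUSG00000020250; chromosome 10, 82833951 to 82897712, plus strand) stood at 178, 189.9 and 219 CPM in placode-enriched and at 106, 129 and 143 CPM in IFE libraries. The ranges were apart, and the log2 fold change was 0.66 ± 0.07 (adjusted p = 1.19e-05, edgeR), with differences within pairs from 0.47 to 0.998. Txn1, its cytosolic substrate and the member with the highest RPKM in both fractions, had 119, 139 and 167 CPM against 133, 158 and 164 CPM. Most of both ranges coincided, and the estimate was -0.16 ± 0.08 (adjusted p = 0.129, edgeR). Txn2, the mitochondrial thioredoxin, stood at 122 ± 12.3 against 147 ± 12.6 CPM (mean ± SD, n = 7 each), lower in 7 of 7 pairs, at -0.28 ± 0.07 on the log2 scale (adjusted p = 0.00764, edgeR). Its reductase Txnrd2 had only 3.23 ± 0.809 and 3.36 ± 0.665 CPM and an estimate of -0.08 ± 0.22. Txnip, the arrestin-like protein that binds and inhibits thioredoxin, had 81.6, 92.5 and 122 CPM against 74.4, 99.2 and 107 CPM, with an estimate of 0.03 ± 0.07 (adjusted p = 0.807, edgeR).

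Thioredoxin-like proteins showed small differences only, all under 0.35 on the log2 scale among those past the threshold. Txndc17, a cytosolic thioredoxin-like protein with the highest RPKM of the class (chromosome 11, 72207547 to 72210015, plus strand), had 131, 152 and 193 CPM in placode-enriched and 167, 189 and 202 CPM in IFE libraries. The ranges overlapped, 6 of 7 pairs were lower, and the log2 fold change was -0.25 ± 0.08 (adjusted p = 0.0230, edgeR). Txndc5, a disulfide isomerase of the endoplasmic reticulum, Txnl1, a cytosolic thioredoxin-like protein, and Txndc11 were lower, at -0.25 ± 0.08, -0.22 ± 0.06 and -0.34 ± 0.12. Txndc12, another protein of the endoplasmic reticulum, was higher by 0.27 ± 0.08 (adjusted p = 0.0157, edgeR). The 4 lower calls depended on which pairs were kept. Leaving out replicate 1, 4 or 6 took Txndc17 to an adjusted p of up to 0.0810, replicate 1, 2, 4 or 7 took Txndc5 to up to 0.114, and replicate 1 or 4 took Txnl1 to up to 0.0565 (edgeR). When 1 pair at a time was left out, Txndc11 kept its call only without replicate 5. It was also called without replicates 3 and 5 together. With only the 4 pairs whose codes do not start with 27-7 it passed too (adjusted p = 0.0177, edgeR). Scaled by library size only, with all 7 pairs, it lost the call. With another single pair left out the edgeR adjusted p of Txndc11 was 0.0556 to 0.141, and its difference in pair 5 alone was above 0, at 0.23. An exon of Txndc11 overlaps Snn on the opposite strand, which was higher by 0.66 on the log2 scale.

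Of the glutaredoxins, which use glutathione to reduce protein disulfides or carry iron-sulfur clusters, the cytosolic Glrx passed in this fit. Glrx (ENSMUSG00000021591; chromosome 13, 75839868 to 75850154, plus strand) stood at 4.81, 7.34 and 7.93 CPM in placode-enriched and at 16.1, 20.0 and 22.8 CPM in IFE libraries. No placode-enriched library reached the lowest IFE library, and the log2 fold change was -1.49 ± 0.14 (adjusted p = 2.44e-06, edgeR). Glrx3, an iron-sulfur cluster carrier with the highest RPKM of the class, had 49.4, 66.6 and 89.6 CPM against 59.4, 75.5 and 87.9 CPM. The ranges overlapped, with an estimate of -0.19 ± 0.08 (adjusted p = 0.0703, edgeR), and Glrx3 passed without replicate 1 (-0.24, adjusted p = 0.0397, edgeR) or replicate 3 (-0.21, adjusted p = 0.0498, edgeR). Glrx5, its mitochondrial counterpart, was just outside the threshold at -0.22 ± 0.08 (adjusted p = 0.0508, edgeR) and inside it without replicate 5 (-0.27, adjusted p = 0.0185, edgeR). With all pairs it passed by DESeq2 (adjusted p = 0.0483), by limma-voom (adjusted p = 0.0450), and in edgeR with non-robust dispersion (adjusted p = 0.0498) or without the replicate block (adjusted p = 0.0377). Glrx2 had -0.12 ± 0.08 (adjusted p = 0.308, edgeR).

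Among the other antioxidant enzymes the mitochondrial superoxide dismutase was lower, and the cytosolic one did not pass. Sod2 (chromosome 17, 13006846 to 13040063, plus strand) stood at 38.6, 40.4 and 49.8 CPM in placode-enriched and at 60.3, 67.7 and 69.0 CPM in IFE libraries. The ranges were apart, and the log2 fold change was -0.65 ± 0.07 (adjusted p = 9.44e-06, edgeR). Sod1, the cytosolic enzyme, had 116, 140.1 and 186 CPM against 114, 140.4 and 185 CPM, with an estimate of 0.00 ± 0.12 (adjusted p = 0.998, edgeR). Its highest values, too, lay in placode-enriched replicate 5 and IFE replicate 3. The Sod1 estimate was 0.11 without replicate 3 (adjusted p = 0.416, edgeR), -0.10 without replicate 5 (adjusted p = 0.515, edgeR) and 0.02 without both pairs (adjusted p = 0.885, edgeR). Its counts are uncertain, since 72.5% of the transcript is shared with Gm8566. Cat, the peroxisomal catalase, had 80.8, 96.1 and 105 CPM against 82.3, 89.4 and 94.6 CPM, with an estimate of 0.07 ± 0.07 (adjusted p = 0.483, edgeR). Nqo1, a quinone reductase and textbook NRF2 target, was higher by 0.52 ± 0.16 (adjusted p = 0.0267, edgeR), at 7.24 ± 2.00 against 5.00 ± 1.13 CPM (mean ± SD, n = 7 each). Its call was lost without replicate 1, 5, 6 or 7 (edgeR adjusted p up to 0.0820, estimate down to 0.44). Hmox1, heme oxygenase and another NRF2 target, had 4.69 ± 1.27 and 5.88 ± 1.59 CPM and did not pass (-0.33 ± 0.21, adjusted p = 0.277, edgeR).

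**Figure D3:**
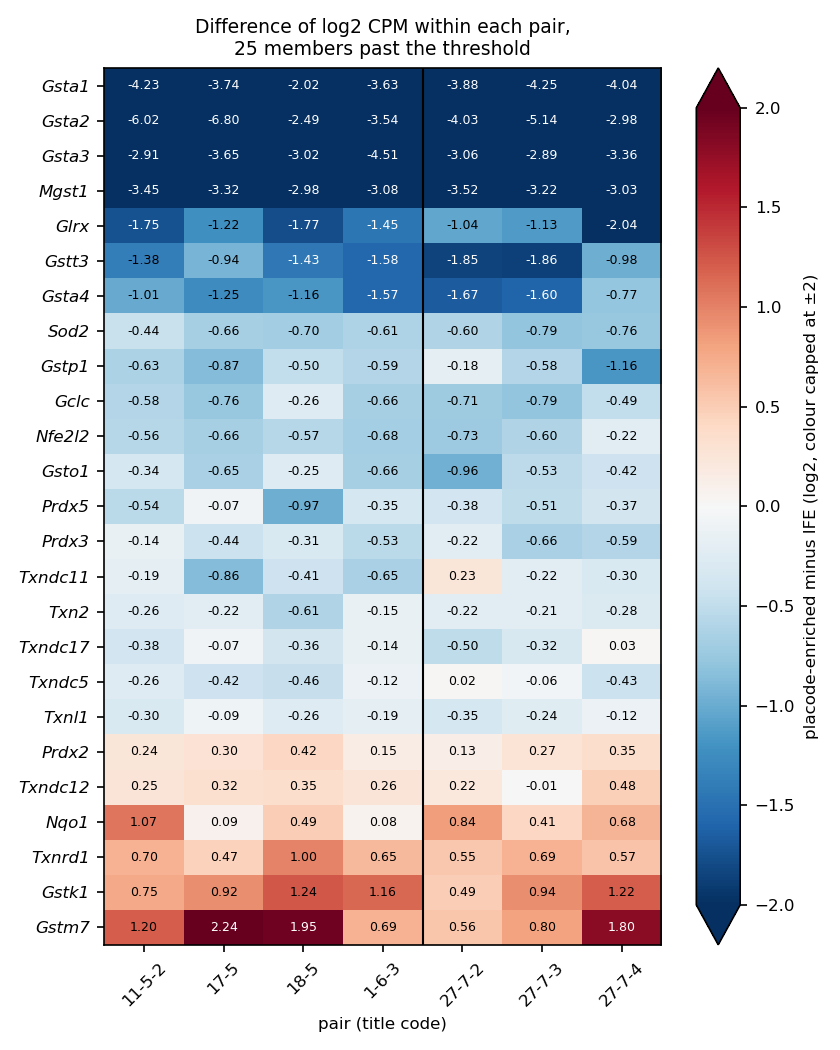
Difference of log2 CPM within each pair (columns by title code, placode-enriched minus IFE, prior count 2, colour capped at ±2) for the 25 members past the threshold (rows), with a line between the 4 other pairs and the 3 pairs whose codes start with 27-7. Rows from Gsta1 to Gsto1 are negative in each column, while Txndc11, Txndc5 and Txndc17 each hold a value above 0.

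The title codes of 3 pairs start with 27-7, and what this marks is not stated in the labels. All 25 members past the threshold had the same sign in both sets of pairs. This follows largely from their choice over these same pairs, so no conclusion is drawn from it. A test of whether the fraction effect differed between the sets called 0 of 15382 genes (0%) with edgeR and 0 with limma-voom. At an unadjusted p under 0.05 it gave 528 genes (3.43%) and 0 members, and the smallest adjusted p was 0.902. The plot of differences by pair shows the spread behind this: Mgst1 varied by little, while Gstm7 ran from 0.56 in pair 27-7-2 to 2.24 in pair 17-5.

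Levels per kilobase put much the same members first in both fractions, apart from Mgst1. The order between genes rests on the merged length of all annotated exons, which can exceed that of any transcript. For Sod1 it is 3970 bases, against 641 for the longest coding transcript, and for Prdx2 3050 against 1612. For Txn1 both are 1051. The order was not recomputed with transcript lengths. In placode-enriched libraries Txn1 (133 ± 15.7 RPKM), Gpx1 (125 ± 20.9) and Txndc17 (121 ± 16.2) led and did not differ beyond their SD (n = 7). In IFE libraries Txn1 (148 ± 10.03) and Txndc17 (143 ± 9.37) were within their SD of each other, and Gpx1 (119 ± 10.3) and Mgst1 (102 ± 13.1) followed. Prdx2 came next to them at 97.5 ± 10.7 RPKM in placode-enriched and 81.0 ± 7.21 RPKM in IFE libraries. Summed RPKM of the other main classes differed less than those of the transferases (placode-enriched and IFE, mean ± SD, n = 7 each). Peroxidases had 205 ± 21.4 and 197 ± 17.4, peroxiredoxins 234 ± 37.0 and 236 ± 30.0, and thioredoxins with reductases and Txnip 225 ± 15.4 and 235 ± 10.4. Thioredoxin-like proteins had 211 ± 18.9 and 236 ± 12.6, and glutaredoxins 28.8 ± 2.80 and 35.0 ± 3.62. Glutathione synthesis and recycling had 30.8 ± 2.94 and 33.9 ± 1.74, and other antioxidant enzymes 83.9 ± 5.47 and 83.8 ± 6.08.

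**Figure D4:**
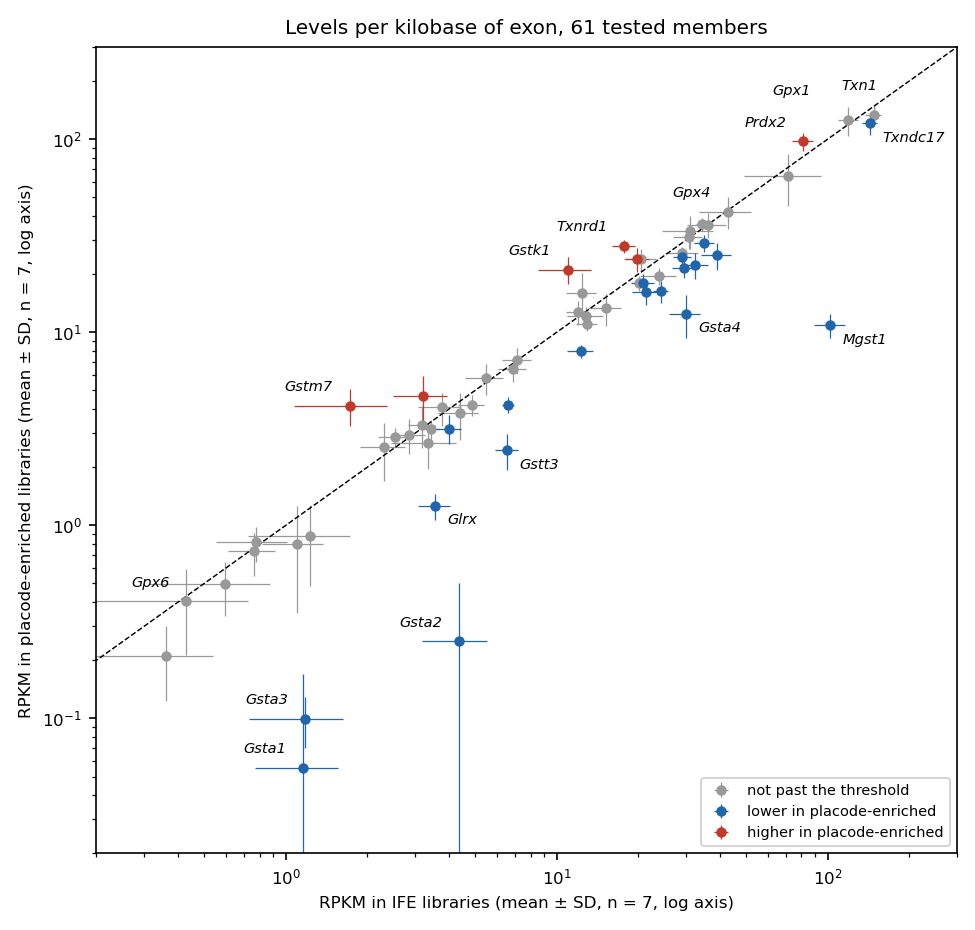
Mean RPKM ± SD (n = 7, log axes) of the 61 tested members in IFE (x axis) and placode-enriched libraries (y axis), with a dashed line of equal levels. Most members lie near the line, Mgst1 at 102 and 10.9 RPKM lies far below it, and the SD of Gsta1 and Gsta2 in placode-enriched libraries reaches 0, below the axis.

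The remaining 8 members did not pass the filter and were not tested in this fit. They were Gpx2, Gstm3, Gsto2, Gstp2, Gstp3, Gstt1, Gstt4 and Prdx6b, with highest values of 0.5905, 0.791, 0.271, 1.34, 0.686, 0.696, 0.0556 and 0.0556 CPM. Gstp2 had 9 counts over the placode-enriched and 155 over the IFE libraries and Gstp3 had 4 and 95, while Gstm3 had 107 and 10. Fitted without the filter, Gstm3 was higher (3.89, adjusted p = 0.0209, edgeR) and Gstp2 and Gstp3 were lower (-4.005 and -5.18, adjusted p = 0.000973 and 0.00201, edgeR), with estimates that depend on the prior count, and the other 5 did not pass. Gstm3, Gstp2 and Gpx2 share transcript sequence with near-identical genes and are uncertain.

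Lists of related genes that hold no member were read beside these results. Of the 11 regulators of NRF2, 2 were higher, 2 lower and 7 did not pass, where 15.6% of all genes tested were lower and 15.5% higher. Bach2, a repressor that binds the same elements as NRF2, stood at 49.7, 61.8 and 84.3 CPM in placode-enriched and at 10.98, 12.6 and 16.6 CPM in IFE libraries. Those ranges were far apart, with a log2 fold change of 2.30 ± 0.09 (adjusted p = 9.67e-10, edgeR). Its relative Bach1 was higher by 0.24 ± 0.08, Keap1, the adaptor that marks NRF2 for degradation, was lower, at -0.29 ± 0.10, and Sqstm1, which binds Keap1, was lower, at -0.23 ± 0.08.

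Of 15 tested genes of cysteine supply and glutathione turnover, 6 were lower, 1 was higher and 8 did not pass, where 15.6% of all genes tested were lower and 15.5% higher. Slc7a11, the cystine importer, had 1.30, 3.46 and 7.07 CPM in placode-enriched against 69.4, 89.9 and 106 CPM in IFE libraries. This was the largest difference of the list, at -4.68 ± 0.20 (adjusted p = 1.84e-09, edgeR), while its partner subunit Slc3a2 was higher by 0.29 ± 0.07. Slc7a11 is also known as a pigment gene of the mouse, and the melanoblast markers given above moved with it; their part was not tested. Cbs, which starts the route from homocysteine to cysteine, and Ggt6, of the gamma-glutamyltransferase family, were lower, at -1.08 ± 0.09 and -1.34 ± 0.18.

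The other lists were mixed, and their counts are to be read beside the 15.6% of all genes tested that were lower and the 15.5% that were higher. NADPH supply and further NRF2 targets gave 4 higher, 4 lower and 10 not past the threshold of 18 tested. Osgin1 was lower (-4.47 ± 0.73) from a highest placode-enriched value of 0.780 CPM, Akr1b8, an aldo-keto reductase, was higher (1.33 ± 0.22), and the ferritin subunits Fth1 and Ftl1 were higher by 0.60 ± 0.07 and 0.28 ± 0.08. G6pdx and Pgd, the NADPH-producing enzymes of the pentose phosphate pathway, were lower, at -0.35 ± 0.07 and -0.33 ± 0.08. Selenoproteins and their synthesis gave 4 lower and 15 not past the threshold of 19 tested, with Selenop, the selenium carrier, at -1.18 ± 0.13 and Dio2, a deiodinase near the limit of detection, at -2.42 ± 0.63. Thiol and methionine repair gave 4 lower and 1 higher of 16 tested, with Pon2, a lactonase, at -1.08 ± 0.10. Osgin1 and Dio2 passed the filter on low counts through their IFE libraries, so their differences are descriptions.

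**Figure D5:**
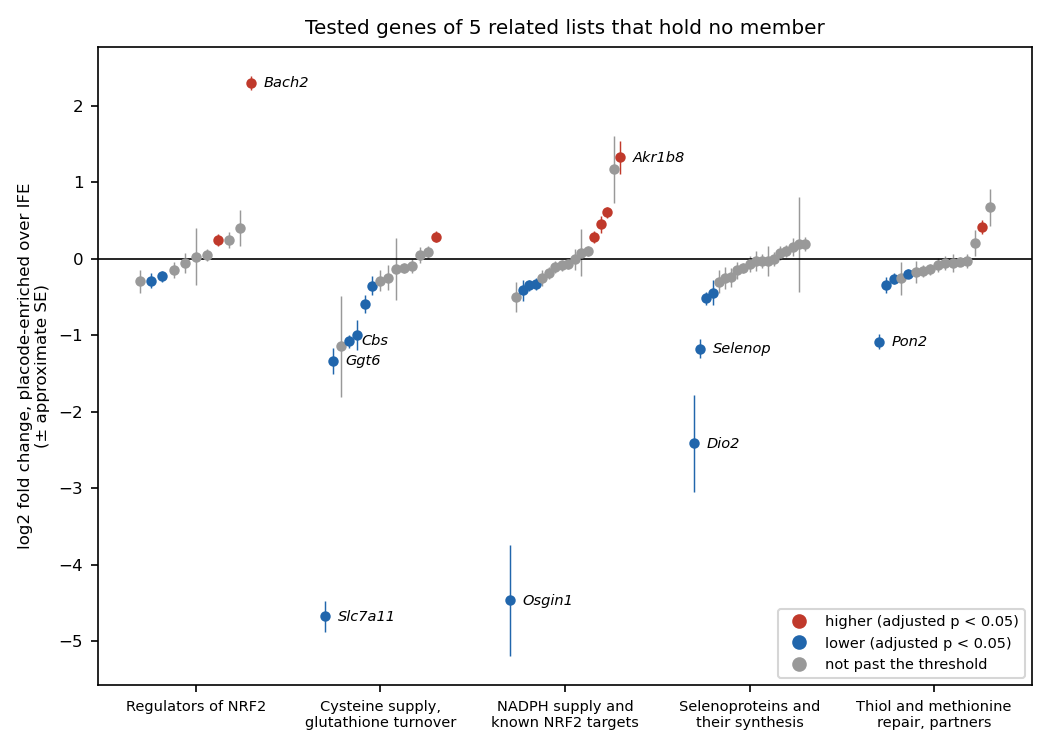
Log2 fold change (y axis, placode-enriched over IFE, bars of approximate SE) of each tested gene of 5 related lists that hold no member, ordered within a list by value. Names mark genes past the threshold that differ by at least 1, from Slc7a11 at -4.68 to Bach2 at 2.30.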

How the data were processed

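The authors' deposited values are whole-number counts of reads for each Ensembl gene, with no normalization that the values would show. Per the labels' protocols, sorted cells gave total RNA for Ovation SoLo libraries. Per the submitters' processing notes, the tools were STAR (version given as 1.5), HTSeq, Trimmomatic, bcl2fastq 2.17.1.14, MultiQC and FastQC, with builds GRCm38 and mm10. Not given in the sources used here are the strand setting and the handling of duplicate reads. A total of 0 columns were left unused.

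Symbols came from GENCODE M21 on GRCm38, and 25949 of 26252 gene IDs matched. The 303 others held 0.436% of the counts. The members and all gene lists were chosen with earlier results of these data known. Counts were fitted with edgeR 4.0.16 in R 4.3.3 (filterByExpr, TMM, robust quasi-likelihood, pair as a block), with limma 3.58.1 and DESeq2 1.42.0 as alternatives, and checked on simulated data. Fold changes used a prior count of 0.125, and standard errors are approximate. CPM used TMM-scaled library sizes. RPKM divided CPM by the merged length of all annotated exons of a gene, in units of 1000 bases. The pairs come from the labels, and within a pair the libraries' deviations from their fraction's mean had an average correlation across genes of 0.0548 (-0.132 to 0.195). Between libraries of different pairs the average was -0.00879, and only 2 pairs were over 0.1, so the values themselves show the pairing weakly. P-values measure the spread between pools.

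Lowest, median and highest values are given for members past the threshold with an absolute log2 fold change of at least 1 and a mean of at least 5 CPM, for the member with the highest RPKM of each class, and for Nfe2l2, Gclc, Gclm, Gsr, Txnrd1, Txnip, Gpx4 and Cat. Sod2, Gsta1 and a few others were described after their values were seen. Genes of related lists are named where they passed and differed by at least 1, and others of these lists were chosen after their values were seen. Shared transcript sequence was found with BLAST 2.17.0 (identity of 97% or more over at least 50 bases). Tables and figures used Python 3.11.15, pandas 2.3.3, numpy 2.4.6 and matplotlib 3.10.9.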

Additional observations from a re-analysis of the deposited data

Results flagged for a closer look

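In 9 of 122 groups of 7 libraries, 1 library stood apart from the other 6 by a larger share of the range than Dixon's test allows, and chance flags about 1 in 20 groups. IFE replicate 1 was highest for Glrx2, at 34.962 CPM where the others had 28.1 to 30.1 CPM, and for Gstt2, at 4.9639 CPM where the others had 1.37 to 2.62 CPM. IFE replicate 6 was lowest for Gsr at 26.382 CPM (others 32.7 to 35.1 CPM), IFE replicate 7 for Gstm4 at 4.902 CPM (others 7.34 to 8.62 CPM) and IFE replicate 5 for Txn1 at 133.23 CPM (others 152 to 164 CPM). IFE replicate 2 was highest for Txndc16 at 14.903 CPM (others 7.31 to 8.60 CPM). In the placode-enriched fraction, replicate 3 was highest for Gsta1 at 0.2927 CPM (others 0 to 0.0787 CPM). Replicate 1 was highest for Nqo1 at 11.295 CPM (others 5.28 to 7.44 CPM), and the Nqo1 call was lost without that pair (log2 fold change 0.44, adjusted p = 0.0820, edgeR). Replicate 5, which had the highest share of structural noncoding RNA of its fraction, was highest for Sod1 at 185.54 CPM (others 116 to 145 CPM).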

How the results depend on the processing

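The counts of calls and each tested member were recomputed under 22 alternatives, of which leaving out pairs 3 and 5 together was chosen after seeing the data, and the test between the sets of pairs under 11. Class sums, promoter counts and the marker and related lists were not recomputed. Of the 25 members past the threshold, 13 were tested and called with the same sign under all of them, Gsta1 under the 21 in which it was tested (not the stricter filter), and 11 lost the call under at least 1, 5 of them when a single pair was left out. A further 8 tested members, and Gstm3, Gstp2 and Gstp3 from outside the filter, passed under at least 1 alternative, and 0 calls reversed. The estimates of 17 members that did not pass changed sign while staying outside the threshold. Without the replicate block 6 members were higher, 20 lower and 4689 genes differed, against 6, 19 and 4786 with it. It also brought in Glrx5 (edgeR adjusted p = 0.0377) and Mgst3 (edgeR adjusted p = 0.0417) and lost Txnl1 (edgeR adjusted p = 0.0591). With only the 27-7 pairs 2331 genes differed, 2 members were higher and 12 lower, and with only the other pairs 3087 genes differed. Without pairs 3 and 5 5212 genes differed, 7 members were higher and 21 lower. Leaving out 1 pair at a time gave 5 to 7 higher and 15 to 21 lower members and 3953 to 5229 genes. The test of a difference between the sets of pairs called 0 members under each alternative run. Reads of low members limit precision: in 4 tested members fewer than 7 placode-enriched libraries reached 10 counts.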
